A study of Mus musculus with 49 samples.

Results

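A group of 212 genes was described that were higher without the chromatin protein TRIM24 after 12 h of p53 activation but not yet after 4 h. They were taken from 20489 genes measured by RNA-seq in mouse embryonic stem cells, of which 13374 reached the level that the choice required. The members were chosen by the group means of the deposited log2 values of the time course at 4 h and 12 h. A gene was a member when its mean at 12 h was at least 0.75 higher without Trim24 than with it, when its difference at 4 h was under 0.25, and when its 12 h level without Trim24 was at least 1 on the log2 scale. Of the 219 genes that met these thresholds, 7 were left out by name (Gas1, Foxd3, Cdkn1b, Col4a1, Col4a2, Lama1 and Sox17). Hmcn1, which was also to be left out, did not meet them, with a 4 h difference of 0.461. The differences at 4 h and 12 h therefore chose the genes and are given as a description, without a test. The 8 h and 2 h libraries, the uninduced cells, the RING-domain experiment and the wild-type cells played no part in the choice and were tested.

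The libraries came from the TC-1 mouse embryonic stem cell line of strain 129S6/SvEvTac, grown in serum with LIF, a cytokine that keeps these cells undifferentiated. In the degron line, both copies of Trim24 end in an FKBP12(F36V)-V5 tag, so that the degrader dTAG13 at 500 nM removes the protein, and the line is a single clone. p53 was activated with doxorubicin at 1 µM, a DNA-damaging drug, for 2, 4, 8 or 12 h, with Trim24 present (3 libraries at each time) or degraded (3 libraries at each time), with 3 uninduced libraries for 0 h. Both agents were present for equal lengths of time, and thus the hours of p53 activation and the hours without Trim24 cannot be told apart. A separate table held 3 uninduced libraries with Trim24 and 3 in which it was degraded for 4 h without activation. Another held 4 libraries each of activated cells with Trim24, activated cells without it and activated cells of a ligase-null line, all at 4 h. The last held 2 uninduced libraries of wild-type cells and 2 activated for 4 h. The ligase-null line carries mutations of RING-domain cysteines in Trim24 and is a line of its own, so the mutation and the line cannot be told apart. The genotype labels give degron-tagged Trim24 for all groups except the wild-type libraries, while the study's methods name no parent line for the ligase-null cells. The sources do not say that replicate libraries came from separate cultures, so the p-values measure the spread between libraries.

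TRIM24 is a nuclear protein of the tripartite-motif family. It has a RING domain, which in such proteins transfers ubiquitin, and a plant homeodomain finger with a bromodomain, which together read the modification state of histone tails. It was first known as a cofactor of nuclear receptors, among them the retinoic acid receptors, and it binds p53. p53 is a transcription factor that DNA damage stabilizes, and in embryonic stem cells its activation is known to lower pluripotency genes and to raise genes of differentiation.

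The 49 libraries held 14422098 to 35185256 reads over genes (median 19520026). Values are given as CPM, reads scaled to a fixed total over genes by the authors, without the prior count of 8 reads that the authors added before taking logarithms. Differences and fold changes are on the deposited log2 scale, where that prior count pulls low genes together and understates their change. Degradation acts on the protein, so the Trim24 transcript does not measure it. The p53 target Mdm2 stood at 177 to 186 CPM at 0 h, at 1118 to 1194 at 12 h with Trim24 and at 722 to 743 at 12 h without it. In the separate uninduced table, the libraries with Trim24 carry a treatment label that names p53 activation, while their titles name them untreated. Their Mdm2 level was 178 to 189 CPM, and they were taken as uninduced, as titled. The embryonic stem cell genes Pou5f1 (392 to 1042 CPM), Sox2 (29.4 to 320), Nanog (7.15 to 669), Zfp42 (44.7 to 1225) and Esrrb (18.0 to 431) were read in every library. Their sum with other such genes went from 7496 to 7646 CPM at 0 h to 1557 to 1635 CPM at 12 h with Trim24 and 1504 to 1607 CPM without it. The fibroblast genes Lum and Dcn were at or near 0. The sum of the 15 listed fibroblast genes was 49.8 to 50.3 CPM at 0 h. At 12 h this sum was 146 to 170 CPM with Trim24 and 153 to 179 CPM without it. In one library of activated cells with Trim24 of the RING-domain table (replicate 7), the member Lars2 alone reached 16739 CPM, against 42.5 to 207 CPM in the other 3, and among the named calls none is of Lars2.

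The members were mostly genes of low to moderate level. At 12 h with Trim24 their median was 3.24 CPM, from 0.364 CPM for Plpp4, a phospholipid phosphatase, to 233 CPM for Ctsl, the lysosomal protease cathepsin L. At 12 h without Trim24 the median was 6.21 CPM, from 1.65 CPM for Nrgn, a calmodulin-binding neuronal protein, to 411 CPM for Ctsl. At 0 h it was 3.25 CPM, with 59 members under 1 CPM and Slc2a3, a glucose transporter, the highest at 1002 CPM. In bulk RNA, more cells with a transcript and more transcript per cell cannot be told apart.

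The members differed little with Trim24 loss through 8 h, and most of the difference arose between 8 and 12 h. The median difference over the 212 genes was −0.01 at 2 h, −0.05 at 4 h, 0.21 at 8 h and 0.93 at 12 h (range at 12 h 0.75 to 1.99, with 75 members at 1 or more). Over all 13374 genes at the same level it was −0.005, −0.003, −0.065 and −0.033. Between 8 and 12 h the median step was 0.81 without Trim24 and 0.05 with it, against 0.04 and 0.01 over all genes at that level. The 12 h libraries chose the genes, so these steps follow in part from the choice and are a description. Of the members, 146 went up by 0.5 or more in this step without Trim24 and did not go down by 0.5 with it, 3 went up without it and down with it, and 30 did not go up by that much without it but went down with it. The remaining 33 did neither. In all, the level with Trim24 went down by 0.5 or more in 33 members, 3 of which also went up without it. A set of 165 genes that met the 12 h threshold and already differed by 0.25 or more at 4 h had a median difference of 0.95 at 8 h.

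**Figure D1:**
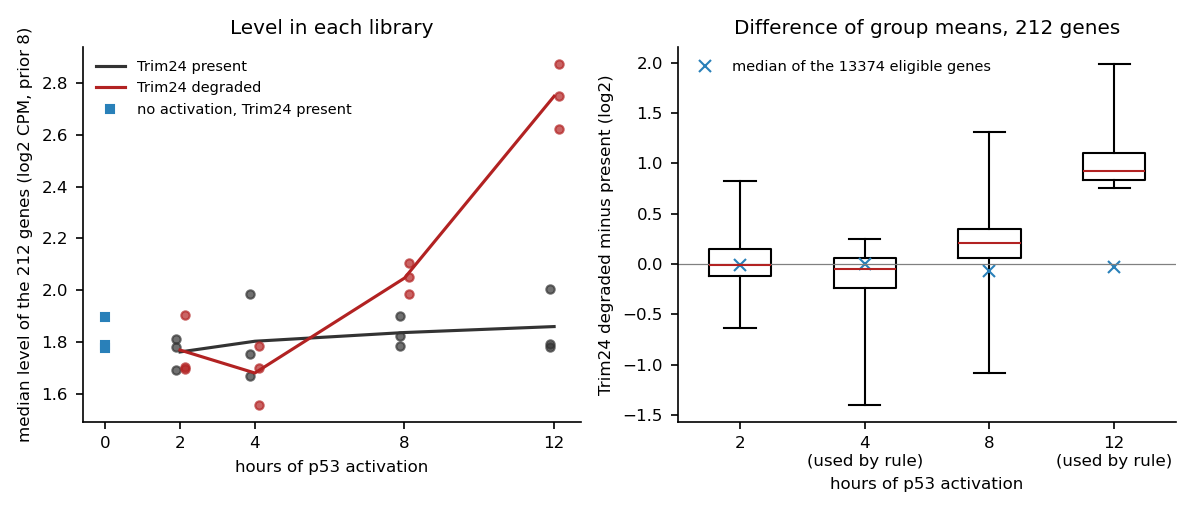
Left, median log2 CPM over the 212 genes in each library of the time course by hours of p53 activation, with Trim24 present (black), degraded (red) and at 0 h (blue squares); right, box plots of the 212 differences (log2, without minus with Trim24) at each hour, whiskers to the extremes, blue crosses for the median of all genes at the level required. The 12 h libraries without Trim24 (medians 2.62 to 2.87) lie above the 12 h libraries with it (1.78 to 2.01), while the groups lie close together at 2 and 4 h, and the 4 h and 12 h boxes follow from the choice of genes.

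At the edge of the choice, Ube2ql1, Fam189a2 and Smad6 lay just inside the 12 h threshold with 0.75 for each, and Ccdc166, Rufy4 and Six4 lay just outside it with 0.749. Cmpk2 (0.248) and Dusp4 (0.245) lay just under the 4 h limit, and Prss16 (0.253), Adamts1 (0.253) and Jph1 (0.256) just over it. On the level, Nrgn (1.003), Cmtm8 (1.04) and Clcf1 (1.06) were just in and Cypt3 (0.994), Tcte2 (0.989) and Dmrta2 (0.979) just out. Of the 212 members, 202 passed an adjusted p under 0.01 at 12 h in limma, against a background of 2.7% of all tested genes called higher there, and 0 members were lower, against 1.41%. At 4 h 0 members were higher and 3 were lower, against 1% and 0.149% of tested genes. These counts follow from the choice.

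For 4 members a promoter is printed as an example, 250 bases before the transcription start to 50 bases after it, from RefSeq on GRCm38.p6. Cachd1 had the second largest 12 h difference and was the member with the largest difference at 8 h, Cyp26a1 is the retinoic acid hydroxylase, and Srgn and Dab2 had large differences in the ligase-null line. The table held such an entry for 142 of the 212 members (67.0%), too few for a share over the group. In Cachd1 (chr4:100776429-100776728, plus strand) and Dab2 (chr15:6299539-6299838, plus strand) capitals mark every CG pair, of which the first has 25 and the second 2. In Cyp26a1 (chr19:37697558-37697857, plus strand) and Srgn (chr10:62527396-62527695, minus strand) capitals mark matches to the TATA box TATAAA and to a retinoic acid receptor direct repeat (AGNTCA again after 5 bases), both searched on both strands. All sequences run 5′ to 3′ along the gene's strand.
Cachd1: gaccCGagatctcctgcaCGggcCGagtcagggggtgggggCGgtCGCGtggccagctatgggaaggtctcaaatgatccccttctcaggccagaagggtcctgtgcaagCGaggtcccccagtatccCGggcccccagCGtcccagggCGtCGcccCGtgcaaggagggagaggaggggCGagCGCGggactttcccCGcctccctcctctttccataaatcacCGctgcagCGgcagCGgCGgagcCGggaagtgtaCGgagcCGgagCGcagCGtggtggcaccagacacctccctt
Dab2: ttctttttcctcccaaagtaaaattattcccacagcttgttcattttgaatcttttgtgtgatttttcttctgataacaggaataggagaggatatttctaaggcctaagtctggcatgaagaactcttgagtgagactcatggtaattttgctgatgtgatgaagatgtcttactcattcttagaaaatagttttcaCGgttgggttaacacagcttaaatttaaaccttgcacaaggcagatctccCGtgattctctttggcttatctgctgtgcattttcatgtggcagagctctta
Cyp26a1: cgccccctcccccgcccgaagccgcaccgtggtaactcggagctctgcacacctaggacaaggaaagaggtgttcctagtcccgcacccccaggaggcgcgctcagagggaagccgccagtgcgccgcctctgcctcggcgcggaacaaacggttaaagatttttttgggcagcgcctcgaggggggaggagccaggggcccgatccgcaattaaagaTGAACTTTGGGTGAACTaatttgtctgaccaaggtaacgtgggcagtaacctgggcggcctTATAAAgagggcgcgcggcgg
Srgn: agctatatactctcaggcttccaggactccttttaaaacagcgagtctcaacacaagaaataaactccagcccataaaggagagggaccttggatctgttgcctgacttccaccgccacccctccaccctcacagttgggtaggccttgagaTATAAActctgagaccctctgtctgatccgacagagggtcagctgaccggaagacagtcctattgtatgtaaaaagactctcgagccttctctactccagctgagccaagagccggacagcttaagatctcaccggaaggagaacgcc
Of 27025 promoters of this length, 1 per gene, 14.2% held TATAAA and 0.218% held the direct repeat. A p53 half-site, searched by its consensus, was in 8.37% of all promoters and was not among the matches in these 4. A match is a description of letters.

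Several of the 15 members with the largest 12 h differences encode transcription factors. Insm1, a zinc-finger factor of neuroendocrine differentiation that lies in 1 exon on chromosome 2 (146221921 to 146225020, GRCm38), had the largest. It stood at 0.675, 0.789 and 0.477 CPM in the 12 h libraries with Trim24 and at 4.25, 4.06 and 2.65 CPM in those without it, a difference of 1.99. All 3 libraries without Trim24 were above all 3 with it, and every earlier library shown for 0 and 8 h was at 1.14 CPM or less. Foxq1, a forkhead factor of epithelia, had 1.74, 2.68 and 2.65 CPM with Trim24 and 7.20, 8.54 and 6.46 CPM without it, a difference of 1.53. At 8 h its groups overlapped, with 1.39, 1.13 and 1.16 CPM against 1.22, 0.933 and 1.36 CPM. Foxc1, a forkhead factor of mesenchyme 245657 bases from Foxq1 on chromosome 13, had a difference of 1.39, with 1.69, 1.58 and 1.75 CPM against 4.64, 5.26 and 4.96 CPM.

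Sox3, a factor of neural progenitors, had 3.33, 3.15 and 4.24 CPM at 12 h with Trim24 and 9.76, 12.4 and 7.18 CPM without it. Its 8 h groups overlapped, at 1.5, 1.13 and 1.11 CPM against 1.06, 0.985 and 1.81 CPM. The 12 h difference was 1.51 for Hoxd1, a homeobox factor of the trunk, 1.48 for Dmrt2, a factor of somite development, 1.42 for C2cd4b, a small nuclear protein, and 1.33 for Maf, a basic leucine-zipper factor. Each of these 4 stood under 2 CPM with Trim24 at 12 h. Cited2, which binds transcriptional coactivators, stood higher: 12.1, 10.7 and 15.4 CPM with Trim24 and 33.6, 39.0 and 26.9 CPM without it, a difference of 1.36. At 0 h it had been at 24.5, 23.6 and 21.6 CPM, so its level with Trim24 at 12 h lay below that at 0 h and its level without Trim24 above it. Among gene families, which were picked after the values were seen, members were 5 of 13 SOX genes at the level required, 5 of 30 forkhead genes, 2 of 4 Iroquois genes, 2 of 3 CITED genes and 2 of 23 dual-specificity phosphatase genes, against 1.59% of all genes at that level.

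At 8 h, in libraries that the choice did not use, 9 of 212 members were higher and 2 lower without Trim24 (called in limma when the adjusted p was under 0.01 and the log2 change was 0.75 or more in size). Of all 17424 genes tested, 1.14% were higher and 0.448% lower. The median over the members was 0.21 against −0.04 over all tested genes, and 176 members were above 0. When the limit on size was dropped and the adjusted p had only to be under 0.05, 39 members were higher and 7 lower, against 3.48% and 7.38% of tested genes. After a correction of each library for GC content 12 members were called higher and 1 lower.

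**Figure D2:**
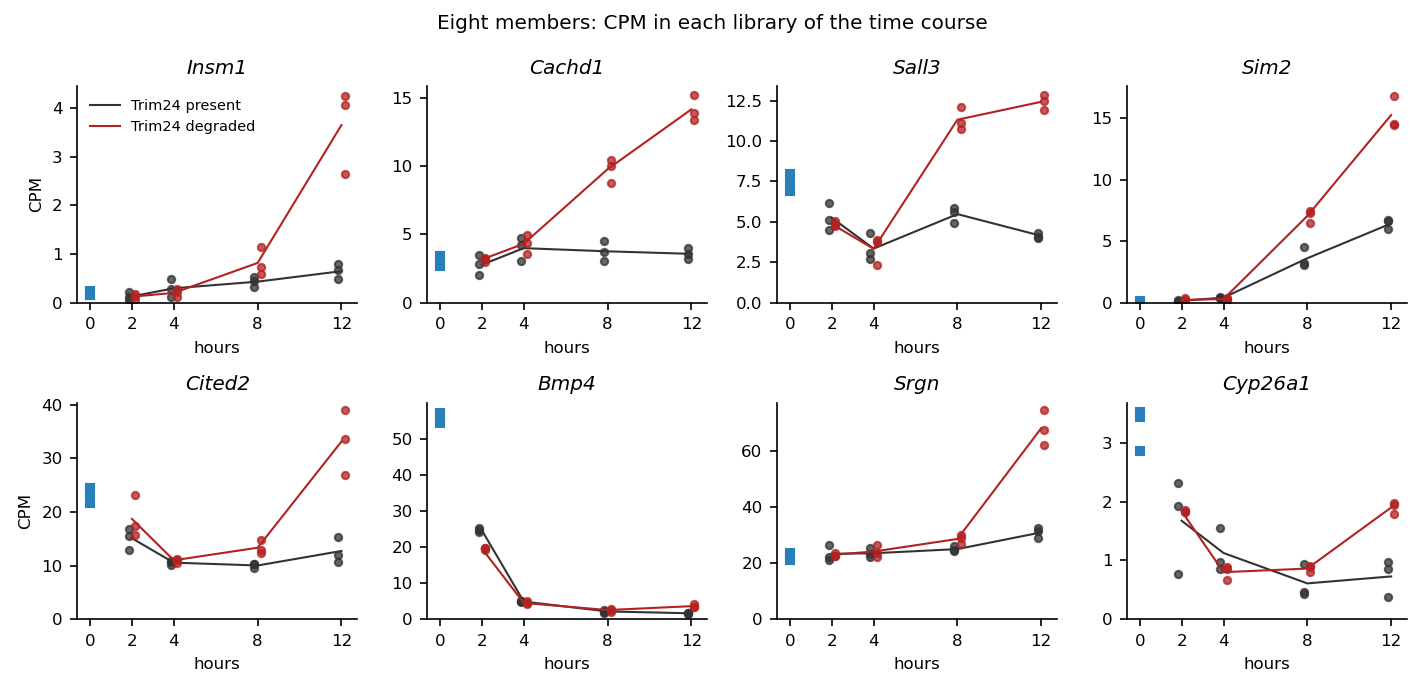
CPM of 8 members in each library of the time course by hours of p53 activation, black with Trim24 and red without it, blue squares for 0 h, lines through the group means; each panel has its own vertical scale from 0. The groups part at 12 h in every panel, and in Cachd1, Sall3 and Sim2 they also part at 8 h.

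The largest 8 h fold change among the members was that of Cachd1, a membrane protein related to calcium-channel subunits, at 4:100776675 to 101029220. At 8 h it had 4.49, 3.06 and 3.73 CPM with Trim24 and 10.5, 8.81 and 10.1 CPM without it, a log2 fold change of 1.31 (SE 0.13, limma adjusted p = 8.7e-21). At 12 h it had 3.18, 3.58 and 3.98 CPM against 13.9, 15.2 and 13.4 CPM. With Trim24 it thus stayed near its 0 h level of 3.14, 3.38 and 2.69 CPM throughout. Sall3, a spalt-like zinc-finger factor, had 5.88, 4.95 and 5.60 CPM at 8 h with Trim24 and 10.8, 11.1 and 12.1 CPM without it, a log2 fold change of 1.003 (SE 0.12, adjusted p = 6.7e-14). At 12 h the 2 groups stood at 4.00, 4.31 and 4.08 CPM and at 12.5, 12.9 and 11.9 CPM, so most of its gap was present at 8 h.

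Sim2, a basic helix-loop-helix factor of the midline, had 3.21, 3.06 and 4.54 CPM at 8 h with Trim24 and 7.27, 7.41 and 6.43 CPM without it, and rose by 0.92 (SE 0.14, adjusted p = 4.3e-09). Other members called higher were Plpp4 (1.12), the progesterone receptor gene Pgr (0.90), Dmrt2 (0.90), the metalloprotease gene Adamts15 (0.83) and Tchh (0.82), a structural protein of hair follicles. Plpp4 lost its call without replicate 3 with Trim24 (adjusted p = 0.0131) or replicate 1 without it (adjusted p = 0.0296), and Pgr without replicate 3 with Trim24 (adjusted p = 0.0195) or replicate 2 without it (adjusted p = 0.0361).

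A pair of members was called lower at 8 h, by calls that several settings ended. Scand1, a SCAN-domain protein, had 6.04, 13.2 and 9.79 CPM at 8 h with Trim24 and 3.87, 5.03 and 4.17 CPM without it, a log2 fold change of −1.03 (SE 0.13, adjusted p = 5.5e-13). At 12 h it had 5.11, 6.78 and 8.64 CPM with Trim24 and 14.9, 26.8 and 8.10 CPM without it, and these groups overlapped. Nrtn, the growth factor neurturin, had 2.35, 3.11 and 3.58 CPM at 8 h against 0.902, 1.61 and 1.22 CPM, a log2 fold change of −1.08 (SE 0.19, adjusted p = 3.5e-07). Neither call held with all groups of the time course in the fit (adjusted p = 0.166 for Scand1 and 0.0577 for Nrtn) or without trend and robust estimation (0.0637 and 0.0221), and that for Scand1 was also lost under quantile normalization (0.0597), median centring (0.0588) and GC correction (0.0974). Both genes were also among those with the lowest 4 h differences, −1.40 and −1.10, in libraries that the choice used.

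At 2 h, 0 of the 201 members tested were called in either direction with limma, against 0.325% of tested genes higher and 0.0127% lower. Before adjustment, p was under 0.05 for 16 higher and 10 lower members, and limma-voom on the recovered reads also called 0. With the adjusted p only under 0.05, 1 member was higher and 0 were lower, against 0.644% and 0.198% of tested genes. Zfp771, a zinc-finger gene, had the smallest adjusted p, with 8.91, 8.73 and 8.09 CPM with Trim24 and 10.8, 12.7 and 17.3 CPM without it, but its log2 fold change of 0.62 (SE 0.13, limma adjusted p = 0.0099) was under the minimum. Its groups did not overlap. Without replicate 1 of the libraries lacking Trim24, 1 member was called higher at 2 h. The effect of Trim24 loss at 8 h was then tested against that at 2 h in 1 model. Of the 212 members, 3 had the greater effect at 8 h and 1 the smaller, against 0.244% and 0.312% of tested genes. These were Sall3 (difference of the log2 fold changes 1.10, SE 0.18, adjusted p = 8.4e-05), Cachd1 (1.12, SE 0.22, adjusted p = 8.5e-04) and Id4 (0.87, SE 0.19, adjusted p = 0.00321), an inhibitor of helix-loop-helix factors, and in the other direction Zfp771 (−1.15, SE 0.18, adjusted p = 1.6e-05). Id4 had 4.82, 4.72 and 5.68 CPM at 2 h with Trim24 against 3.71, 3.77 and 3.93 CPM without it, and 5.83, 6.50 and 5.55 CPM at 8 h against 7.69, 9.64 and 8.29 CPM, so the order of the groups turned. The count of greater effects was 5 without 2 h replicate 1 with Trim24 or without 2 h replicate 3 lacking it, and the count of smaller effects was 3 without 2 h replicate 1 lacking it. The calls for Cachd1 and Id4 rested on single libraries: Cachd1 lost its call without 8 h replicate 2 with Trim24 (adjusted p = 0.0116) or 8 h replicate 1 without it (adjusted p = 0.0125). With the adjusted p only under 0.05 the counts were 11 and 2, against 0.641% and 1.61% of tested genes. With the correction for GC content 4 members were called greater at 8 h and 0 smaller.

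Relative to 0 h, the members formed 5 classes at 12 h, given by group means and without a test since those libraries chose the genes. With a change of 0.75 as the limit, 77 were higher both with and without Trim24, 58 were higher only without it by these limits, 34 were lower with Trim24 and within the limit without it, 27 were lower in both, and 16 were within it in both. The median change from 0 h was 0.22 with Trim24 and 1.21 without it. The first class held genes that activation itself raised, such as Duxf3 and Sim2. The third class held genes that activation lowered and that stood nearer their 0 h level without Trim24.

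**Figure D3:**
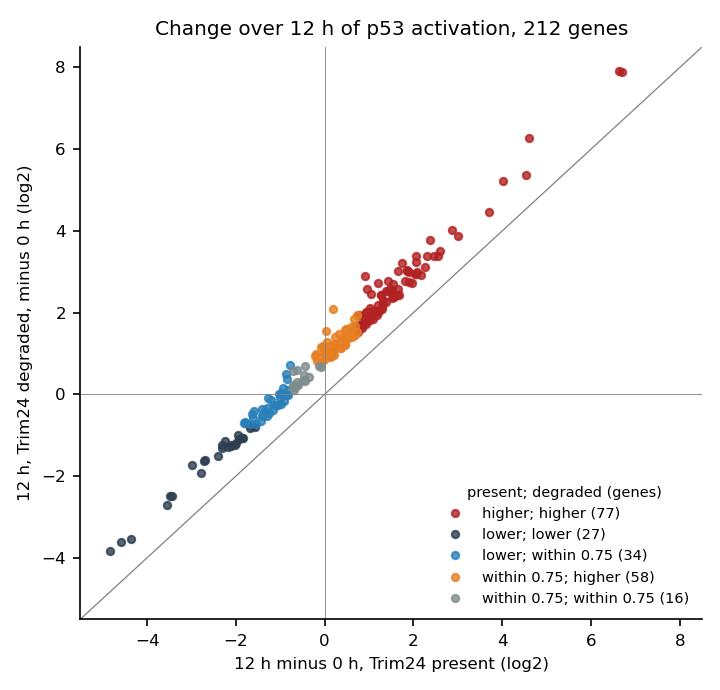
Change of each of the 212 genes from 0 h to 12 h of p53 activation (log2), with Trim24 on the horizontal axis and without it on the vertical axis, coloured by the 5 classes. Every gene lies at least 0.75 above the diagonal, as the choice of genes fixes, from Bmp4 at −4.84 with Trim24 to AW822073 at 6.63 and Duxf3 at 6.69.

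Genes of BMP and Nodal signalling went different ways with activation. Bmp4, the secreted BMP that acts with LIF in these cultures, went from 55.0, 57.2 and 54.3 CPM at 0 h to 1.69, 1.42 and 1.70 CPM at 12 h with Trim24 and to 3.33, 4.16 and 3.23 CPM without it. Both groups stayed far below 0 h. Lefty1, a secreted Nodal inhibitor, went from 228, 244 and 225 CPM to 29.9, 28.5 and 29.1 CPM with Trim24 and to 66.5, 74.3 and 67.7 CPM without it. Bmp2 stood higher after activation, from 0.449, 0.883 and 0.409 CPM at 0 h to 2.12, 2.42 and 2.38 CPM at 12 h with Trim24 and 5.17, 5.31 and 3.37 CPM without it. At 8 h of activation Bmp2 was called higher (0.80, SE 0.21, limma adjusted p = 4.7e-04), a call that quantile normalization turned to −0.006. The BMP antagonist Nog, which was not called at 8 h of activation (−0.46, adjusted p = 0.0344), had a Trim24-loss difference of 1.14 at 12 h, Bmp2 of 0.88, and Smad6, the inhibitory SMAD, of 0.75. Together with Inhbb these 6 were the members among 26 listed genes of the pathway. Of the 20 other listed genes tested at 8 h with limma, 0 were higher and 2 lower without Trim24 (0 and 6 at an unadjusted p below 0.05). None of the 6 members was called at that hour.

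Some genes of WNT, FGF and Hedgehog signalling were members, and counts of listed genes stand beside a share of 1.59% members among all 13374 genes at the level required. Fzd7, a WNT receptor, had 45.8, 47.7 and 47.4 CPM at 0 h, 20.5, 20.6 and 22.7 CPM at 12 h with Trim24 and 37.9, 43.2 and 36.5 CPM without it. Znrf3, a ligase that removes such receptors from the membrane, had 20.6, 26.5 and 24.3 CPM at 12 h with Trim24 and 43.7, 44.6 and 37.9 CPM without it. Its groups did not overlap, and at 0 h it was at 24.6, 26.6 and 26.8 CPM. With Fzd2 (1.23) these were the 3 members among 25 listed WNT genes. At 8 h limma called neither these 3 nor any of the 22 others in either direction (of the others, 2 higher and 7 lower at an unadjusted p below 0.05). Outside that list, the adjacent genes Frat1 and Frat2, which block a kinase of the WNT pathway, had differences of 1.11 and 1.10. Dusp4 (1.23) and Dusp5 (1.17), phosphatases that switch off ERK, were the members among 18 genes of FGF and ERK feedback. Dusp4 had 6.08, 6.31 and 6.78 CPM at 12 h against 15.4, 16.2 and 14.9 CPM, and 10.4, 10.8 and 9.17 CPM at 0 h. Ptch1, the Hedgehog receptor, went from 82.7, 89.2 and 86.0 CPM at 0 h to 3.52, 4.42 and 3.60 CPM with Trim24 and to 7.78, 6.83 and 6.46 CPM without it.

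Among receptors and ligands of axon guidance, Slit2 (1.10), Epha4 (0.94) and Unc5c were the members of 36 listed genes. At 8 h limma called none of these members and 0 of the 32 others tested (of the others, 4 higher and 8 lower at an unadjusted p below 0.05). Epha4, an ephrin receptor, had 160, 148 and 159 CPM at 0 h, 40.3, 40.5 and 39.3 CPM at 12 h with Trim24 and 76.3, 76.7 and 78.6 CPM without it. Cdkn2a, which encodes cell cycle inhibitors, had 2.65, 3.10 and 3.82 CPM at 12 h with Trim24 and 6.28, 6.51 and 5.45 CPM without it, and F3, the clotting factor receptor, had a difference of 0.89. Slc2a3 went from 993, 958 and 1054 CPM at 0 h to 93.2, 95.3 and 87.1 CPM with Trim24 and 172, 196 and 171 CPM without it. Cyp26a1, which breaks down retinoic acid and is a known target of its receptors, stood at 0.964, 0.368 and 0.848 CPM with Trim24 and 1.98, 1.94 and 1.78 CPM without it, both below the 3.44, 3.53 and 2.86 CPM of 0 h.

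Genes of the primitive endoderm, the extraembryonic layer that lines the blastocyst cavity, gave 7 members of 20 listed: Gata4, its regulator, the endocytic adaptor Dab2 and receptor Lrp2, Amn, the proteoglycan Srgn, Cited1 and the activin antagonist Fst. Dab2 had 11.8, 10.4 and 11.6 CPM at 12 h with Trim24 and 24.8, 25.9 and 22.6 CPM without it, and at 8 h its groups overlapped. Srgn had 31.5, 28.9 and 32.3 CPM against 67.6, 74.6 and 62.1 CPM. Summed over the 20 genes, the level was 924 to 972 CPM at 12 h with Trim24 and 1479 to 1635 CPM without it. Without the members the sums were 739 to 806 CPM and 1168 to 1257 CPM, so this sum stood higher too, in the libraries that chose the members. Some genes left out by name met the same thresholds. Among them, Lama1 had 311, 356 and 329 CPM at 12 h with Trim24 and 772, 783 and 679 CPM without it. The part of such genes in the sum was not tested. At 8 h the sums overlapped (873 to 951 and 888 to 1021 CPM), and limma called 0 of the 20 genes there (2 higher and 2 lower at an unadjusted p below 0.05). Summed genes of neuroectoderm and neurons, which include the member Sox3, were at 204 to 221 CPM at 12 h with Trim24 and at 223 to 242 CPM without it. With the members left out of that list, the sums were 201 to 217 CPM and 216 to 230 CPM and overlapped. Those of fibroblasts overlapped as well (146 to 170 and 153 to 179 CPM). The part of such cells in the 12 h differences was not tested.

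Duxf3 (Dux), the homeobox activator of the 2-cell program, and AW822073, which lies 5049 bases from it on chromosome 10 (58222972 to 58224930), were the members that activation raised most. Duxf3 had 0.498, 0.491 and 0.642 CPM at 0 h, 90.4, 94.4 and 93.3 CPM at 12 h with Trim24 and 204, 241 and 200 CPM without it. AW822073 had 79.5, 83.1 and 85.5 CPM at 12 h with Trim24 and 194, 222 and 190 CPM without it. Both lie in repeated sequence, where reads that match several copies were placed at random, so their levels cannot be assigned to 1 copy. The 10 other 2-cell genes went the other way as a sum: 1019 to 1148 CPM at 12 h with Trim24 and 634 to 741 CPM without it.

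The response of the members to p53 activation with Trim24 present was tested at 8 h and 2 h, which share the 0 h libraries, and the 8 h and 2 h libraries are also the controls of the Trim24 comparisons above. At 8 h, 66 of 211 members tested rose and 54 fell, against 27% and 18.3% of all tested genes, and the share that rose was near that background. Relaxing the limit to an adjusted p under 0.05 gave 90 and 79, against 40.8% and 40% of tested genes. The split depended on the scaling: quantile normalization gave 30 higher and 84 lower, and median centring 55 and 68. These moved the median of all tested genes by −0.12 and −0.21. Bmp4 fell by 4.51 (SE 0.11, adjusted p = 1.6e-75), Ptch1 by 3.77 (SE 0.09), Cdc42ep5, an effector of a cytoskeletal GTPase, by 3.47, Slc2a3 by 2.91 (SE 0.06) and Samd1, a chromatin protein, by 2.51. Duxf3 rose by 5.83 (SE 0.13, adjusted p = 4.2e-80), AW822073 by 5.74, Ube2ql1, a ubiquitin-conjugating enzyme, by 3.31 and Sim2 by 3.22, and all these groups were apart.

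At 2 h, 2 members rose and 11 fell of 199 tested, against 3.07% and 0.677% of tested genes. Relaxing it in the same way gave 8 and 37, against 9.35% and 7.12%. Bmp4 was already at 24.6, 25.2 and 24.0 CPM, down from 55.0, 57.2 and 54.3 CPM (log2 fold change −1.16, SE 0.07, adjusted p = 9.5e-10). Gbx2, a homeobox factor of the naive state, went from 26.5, 27.3 and 28.7 CPM to 13.2, 11.8 and 12.4 CPM (−1.12, SE 0.09, adjusted p = 2.8e-08). The histone gene H2bc21 (−1.08), Foxq1 (−1.03) and Fjx1 (−0.94), a secreted kinase-like protein, fell as well, with groups apart. Mylip, a ligase that degrades the LDL receptor, rose from 5.53, 5.45 and 4.15 CPM to 9.41, 10.1 and 7.74 CPM (0.81, SE 0.14, adjusted p = 3.2e-04), and Duxf3 rose by 1.01. Counts higher rested on single libraries. The call for Mylip was lost without 0 h replicate 3 or without 2 h replicate 2, and that for Duxf3 without 2 h replicate 1. Without 0 h replicate 2, 4 members were called higher, and without any 1 of those other 3 libraries 1 was.

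The wild-type cells were activated for 4 h, with 2 libraries per group. Of 207 members tested, 16 rose and 23 fell, against 7.99% and 2.27% of tested genes. The share that rose (7.55%) was near that background and the share that fell (10.8%) was above it. With the adjusted p only under 0.05 the counts were 32 and 54, against 18.1% and 18%. Under quantile normalization the counts were 5 and 35, and without uninduced replicate 1 the count higher was 8. Bmp4 went from 46.6 and 52.6 CPM to 9.46 and 10.5 CPM (log2 fold change −2.27, SE 0.10), Gbx2 from 36.9 and 30.9 CPM to 9.27 and 9.56 CPM (−1.81, SE 0.10), and Fjx1 (−1.5), Lurap1l (−1.47) and Hbegf (−1.26), an EGF-family growth factor, also fell. Duxf3 rose from 0.743 and 0.659 CPM to 7.70 and 7.77 CPM (2.94, SE 0.17), AW822073 by 2.53, the neural crest factor Sox8 by 1.75, Rasl12, a small GTPase, by 1.39 and Mylip by 1.26. Of the 16 that rose here, 15 also rose at 8 h in the degron line, of the 23 that fell 18 also fell there, and 0 went opposite ways. Over all genes the shares were 96.3% of those that rose and 85.5% of those that fell, and 0.118% of the genes called went opposite ways.

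Without p53 activation, 0 of 191 members tested were called after 4 h of Trim24 loss with limma or with limma-voom. Of all tested genes, 0.0781% were higher and 0% lower. No later hour was measured without activation. Before adjustment 15 higher and 10 lower members had p under 0.05, with the adjusted p under 0.05 there were 2 and 0 (0.28% and 0.0846% of tested genes), and the median over the members was 0.03. Bambi, a decoy receptor of BMP and TGF-beta, had the smallest adjusted p, with 16.9, 17.2 and 15.8 CPM with Trim24 and 24.0, 23.9 and 23.8 CPM without it. The log2 fold change of 0.51 (SE 0.08, adjusted p = 2.3e-04) was under the minimum. At 12 h of activation Bambi had 21.6, 24.0 and 21.4 CPM with Trim24 and 37.5, 40.9 and 35.5 CPM without it. These uninduced libraries held more primitive endoderm transcripts than those of the other tables, with a sum of 5308 to 5844 CPM against 974 to 1000 CPM at 0 h of the time course, so levels were not compared between tables.

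After 4 h of activation in the RING-domain experiment, Trim24 loss called 1 of 206 members tested higher and 0 lower, against 1.01% and 0.135% of tested genes. Before adjustment p was under 0.05 for 34 higher and 19 lower members. With the adjusted p under 0.05 there were 23 and 13, against 15.3% and 7.02% of tested genes, and limma-voom called 2 higher and 0 lower. The 1 was Clic6, an intracellular chloride channel protein, with 0.775, 1.75, 1.35 and 0.877 CPM with Trim24 and 2.30, 2.82, 3.21 and 2.87 CPM without it, a log2 fold change of 1.07 (SE 0.18, adjusted p = 2.6e-05). Leaving out replicate 5, 6 or 7 with Trim24, or replicate 4 or 5 without it, raised the count to 3 or 4. Cachd1 (−0.10, adjusted p = 0.608) and Sall3 (0.03, adjusted p = 0.926), called at 8 h, had groups that overlapped here.

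The ligase-null cells, compared with the same 4 libraries of Trim24-expressing cells, gave the most calls of any Trim24 comparison tested. Of 208 members tested, 66 were higher and 5 lower, against 4.67% and 2.28% of tested genes, and the median was 0.37 against −0.02 over all tested genes. At the looser limit there were 96 and 19, against 16.1% and 22%. Srgn had 2.07, 2.24, 3.06 and 2.75 CPM in Trim24-expressing cells and 108, 110, 108 and 109 CPM in ligase-null cells, a log2 fold change of 5.26 (SE 0.09, adjusted p = 1.3e-30). The lysosomal protease gene Ctsh had 3.05, 3.45, 3.43 and 3.16 CPM against 112, 104, 96.5 and 103 CPM (4.84, SE 0.08). Gkn1, a gastric secreted protein, rose by 4.82, Glipr1 by 4.74 and Flt1, a VEGF receptor, by 4.32. Each group lay apart from the other by many times its own spread.

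The genes that were lower in ligase-null cells were Smad6 (−1.04), the adaptor gene She (−1.04), Duxf3 (−0.88), Shisa8 (−0.85) and AW822073 (−0.83). Smad6 had 7.49, 7.78, 10.8 and 7.49 CPM against 4.89, 3.63, 3.85 and 3.16 CPM. Without Trim24-expressing replicate 6, Shisa8 (−0.67) and AW822073 (−0.71) fell short of the minimum change. Cachd1 (0.92, SE 0.12, limma adjusted p = 7.0e-08), called at 8 h of the time course, was also higher in ligase-null cells, while Duxf3 and AW822073 were lower there and higher without Trim24 at 12 h. Of the 66 higher members, 4 were called higher and 0 lower on Trim24 loss at 8 h.

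Primitive endoderm genes moved with these calls. Of the 20 listed, 18 were higher in ligase-null cells and 0 lower, and of the 13 that are not members 11 were higher. Their sum was 634 to 674 CPM in Trim24-expressing cells, 690 to 716 CPM after Trim24 loss and 1747 to 1926 CPM in ligase-null cells. All 7 listed members were called, among them Gata4 with 1.5, 1.46, 1.09 and 1.93 CPM against 13.9, 12.5, 15.4 and 12.2 CPM (2.92, SE 0.14), and Dab2 with 2.58, 2.72, 3.53 and 2.46 CPM against 21.5, 19.8, 19.9 and 20.1 CPM (2.71, SE 0.11). Trophoblast genes moved as well, with sums of 64.3 to 72.0 CPM and 212 to 247 CPM, while summed genes of the 2-cell state were lower in ligase-null cells (125 to 145 and 29.5 to 36.6 CPM) and those of mesoderm overlapped (217 to 249 and 215 to 248 CPM). The part of such cells in the calls was not tested. The 66 higher members had a median of 22.9 CPM in the uninduced Trim24-expressing libraries, which also held the largest sums of these genes, against 1.68 CPM for the 146 other members. In the time course the median 12 h difference was 0.91 over the 66 and 0.93 over the 146.

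**Figure D4:**
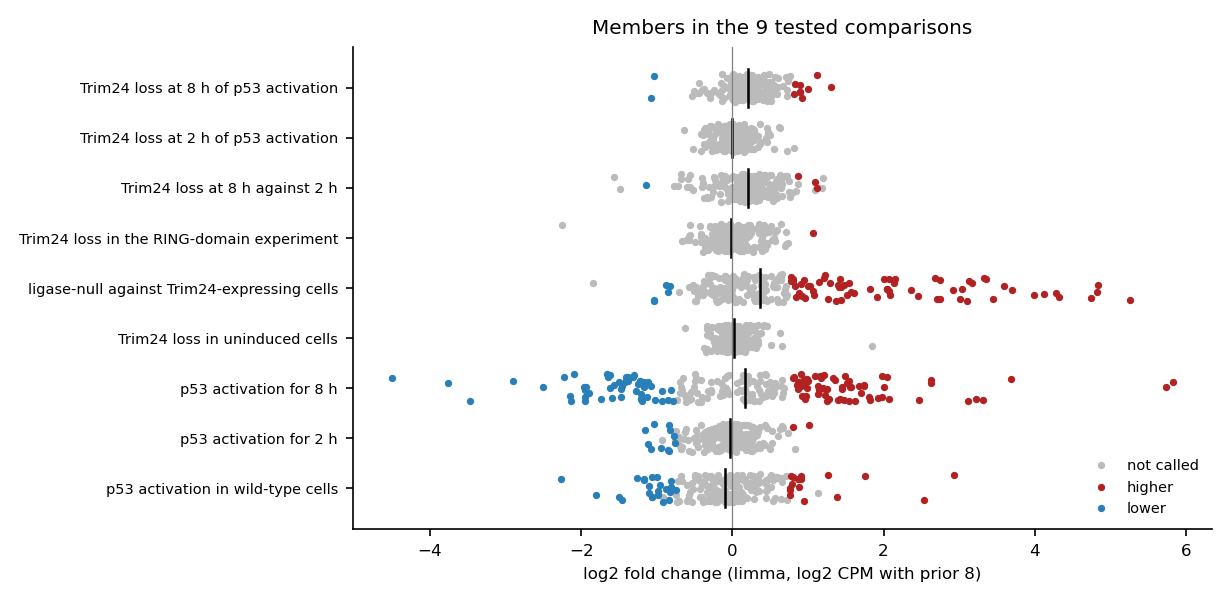
Log2 fold change of every member tested in the 9 comparisons that did not choose the genes, red for members called higher, blue for lower, grey for not called, with a black bar at the median. Calls are many for p53 activation at 8 h and for ligase-null cells (66 higher and 5 lower), and few for Trim24 loss at 8 h (9 and 2), at 2 h (0) and without activation (0).

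Over the 5 other Trim24 comparisons (loss at 8 h, at 2 h, in the RING-domain experiment and without activation, and the ligase-null cells), 134 of the 212 members were called in none and 78 in at least 1, most of these in the ligase-null cells. Of 17863 genes tested in any of the 5, 7.78% were called in at least 1.

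The members also differed from other genes in features of gene structure, which the rule did not name. The genes at the level required were not matched to the members for level or GC content. GC content itself moved with Trim24 status at 4 h and 12 h, the hours that chose the genes, as given below. Their median gene length was 10582 bases against 25027 over the genes at the level required, and their longest coding transcripts had a median of 4 exons against 9. Of the 212, 42 (19.8%) had a single exon, against 402 of 13346 (3.01%). In the 165 genes that differed from 4 h on, single-exon genes made up 7.32% and the median gene length was 29033 bases. Insm1, Duxf3 and AW822073 are single-exon genes, while Cachd1 has 27 exons over 252546 bases and Dab2 has 15 over 140925. The GC content of the members' transcripts had a median of 54.8% against 50.6%.

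**Figure D5:**
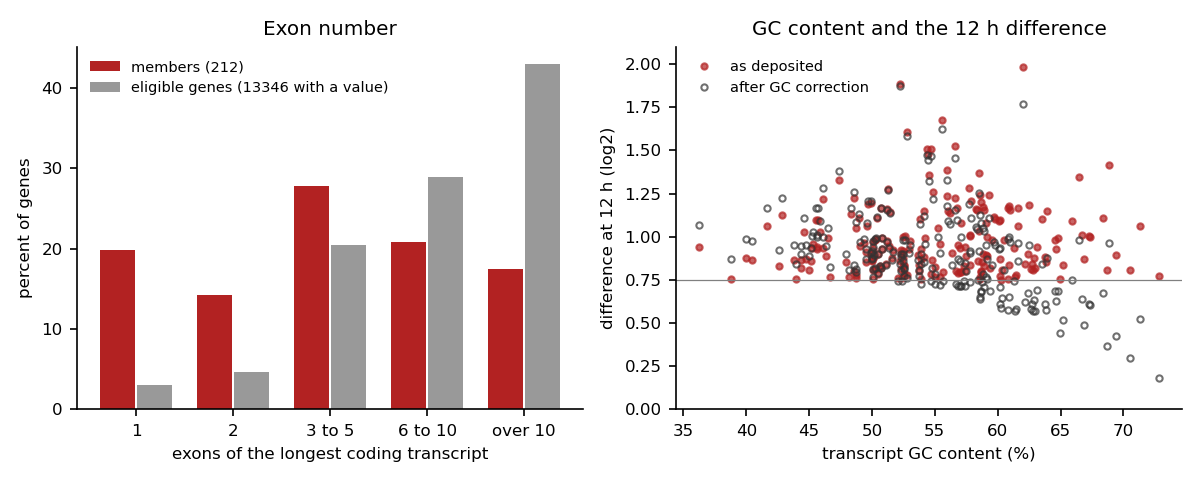
Left, share of genes (%) by number of exons for the 212 members and for all genes at the level required; right, 12 h difference (log2) of each member against its transcript GC content (%), as deposited and after correcting each library for GC content. Single-exon genes were 19.8% of the members and 3.01% of all, and after the correction all 212 differences stayed above 0.

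GC content moved with Trim24 status over all genes. Among the 1335 genes of highest GC content (58.4% to 72.8%), which held 71 members, the median difference was −0.18 at 4 h, −0.13 at 8 h and 0.17 at 12 h. Among the 1338 of lowest GC content, which held 5 members, it was 0.10 at 4 h and −0.14 at 12 h. After each library was corrected for GC content, 155 of the 212 members kept a 12 h difference of at least 0.75 and 206 one of at least 0.5, 148 still met both the 12 h and the 4 h condition, the lowest 12 h difference being Nrtn at 0.18, and the medians were 0.00 at 4 h, 0.28 at 8 h and 0.90 at 12 h. Under quantile normalization 197 kept a difference of at least 0.75. The part of library composition in the rest was not tested.

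Of the 212 genes, 22 lay in 11 pairs with less than 250000 bases between them. Besides Foxq1 with Foxc1, Frat1 with Frat2 (13389 bases apart on chromosome 19) and Duxf3 with AW822073, these included Ppm1j with Rhoc (2357 bases), Sim2 with Ripply3, Znrf3 with Rhbdd3, Marchf9 with Dtx3, Rab43 with H1f10, Prr23a1 with Foxl2 and Tmem158 with Lars2. Sim2 and Ripply3 lay 201388 bases apart, and at 8 h of activation Sim2 rose while Ripply3 fell.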

How the data were processed

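RNA was sequenced as stranded total RNA libraries. Per the labels and the study's methods, the authors ran bcl2fastq (2.17 or 2.20), aligned reads to mm10 with STAR (up to 20 placements, 1 kept at random), counted GENCODE protein-coding genes with featureCounts, dropped predicted genes and scaled by TMM in edgeR. The deposited values are log2 CPM with a prior count of 8, in 4 tables normalized separately, so tests stayed within a table. All sample columns were assigned (0 unused).

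Because the files hold log2 values, limma 3.58.1 in R 4.3.3 (trend, robust) was fitted to them in place of the study's count test. Genes were kept when at least 0.5 above the value of 0 reads (−1.48) in at least the number of libraries in the smaller group. A call needed a Benjamini-Hochberg adjusted p under 0.01, over all genes tested, and a log2 change of 0.75 or more in size. Removing the prior gave whole reads for 100% of values (within 0.01), which entered limma-voom as an alternative. The model was tested on simulated data, with changes planted only in genes with many reads. That test does not cover the low levels of many members. Replicate pairs differed beyond counting noise (chi-square per degree of freedom at least 2.08), so none was counted once. Genes were named as the 15 largest 12 h differences, up to 5 largest calls in each direction of a comparison whose groups did not overlap, up to 4 members of a list and the 3 on each side of a threshold. The families, the neighbouring pairs, the remaining calls at 8 h, further list members (Amn, Fst, Gata4, Inhbb), Bambi, Ctsl, Cyp26a1 and Lars2 were named after their values were seen. Coordinates are GRCm38. The members and lists were chosen with earlier results of these data known. The alternatives are given at the end. Values of 2 members are not reported here.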

Additional observations from a re-analysis of the deposited data

Results flagged for a closer look

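The effect of Trim24 loss differed between 8 h and 2 h, by an interaction term in limma, for Cachd1 (1.12), Sall3 (1.10), Id4 (0.87) and Zfp771 (−1.15), given as the 8 h minus the 2 h log2 fold change.

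In 60 groups of 4 libraries, 1 library stood apart from the other 3 in 5 cases by the ratio of its gap to the range, above Dixon's 95% limit, which chance passes in about 1 of 20 groups. In activated Trim24-expressing cells of the RING-domain table, replicate 6 was low for Gkn1 (ratio 0.842, log2 −1.48 against −1.30 to −1.27) and high for Smad6 (ratio 0.895, log2 3.48 against 2.97 to 3.03). After Trim24 loss there, replicate 6 had the highest median over the members (ratio 0.845, log2 1.43 against 1.30 to 1.32). In ligase-null cells, replicate 2 was low for She (ratio 0.903, log2 1.75 against 2.22 to 2.27) and replicate 1 was high in the sum of mesoderm genes (ratio 0.970, 248.2 CPM against 214.9 to 215.9 CPM).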

How the results depend on the processing

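Counts below are members called higher and lower. Without trend and robust estimation, Trim24 loss at 8 h gave 5 and 0, its 8 h against 2 h difference 1 and 0, the RING-domain experiment 0 higher, activation at 2 h 0 and 7, and wild-type activation 10 higher. With an adjusted p under 0.05 and no minimum they were 39 and 7, 11 and 2, 23 and 13, 8 and 37, and 32 and 54 in that order, with 1 higher for Trim24 loss at 2 h, 2 higher in uninduced cells and 19 lower in ligase-null cells. With all groups of the table fitted, Trim24 loss gave 1 higher at 2 h and 0 lower at 8 h, and the 8 h against 2 h difference 0 lower. Without the filter the latter gave 1 higher, activation at 2 h 0 and 4, and wild-type activation 9 higher. The RING-domain experiment gave 2 higher with limma-voom and 5 higher with a prior count of 1. Quantile normalization gave 30 and 84 for activation at 8 h, 1 and 17 at 2 h and 5 and 35 in wild-type cells, and it and median centring each gave 1 lower for Trim24 loss at 8 h. GC correction, chosen after seeing the data, gave 1 lower at 8 h, 0 lower for 8 h against 2 h and 3 lower in ligase-null cells. Restricted to members past both thresholds at 12 h, Trim24 loss at 8 h and its difference from 2 h each gave 0 lower. Restricted to members with a 12 h difference of at least 1, which are fewer genes, these gave 1 and 0 lower, the RING-domain experiment 0 higher, ligase-null cells 22 and 3, activation 23 and 19 at 8 h and 4 lower at 2 h, and wild-type activation 5 and 8. Except in that restriction, the cause was not tested.

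Leaving out 1 library at a time gave 8 to 11 higher and 2 lower for Trim24 loss at 8 h, 0 to 1 and 0 at 2 h, 2 to 5 and 1 to 3 for their difference, 1 to 4 and 0 in the RING-domain experiment, 62 to 70 and 4 to 7 in ligase-null cells, 0 to 1 and 0 in uninduced cells (1 without replicate 2 lacking Trim24), 64 to 68 and 53 to 56 for activation at 8 h, 1 to 4 and 8 to 14 at 2 h, and 8 to 16 and 21 to 28 in wild-type cells, where the remaining library of a group is assumed to vary like the others. Of 910 refits of 49 named calls, 866 kept the call, 44 lost it and 0 reversed. Over all 259 calls, 4714 refits gave 227 losses and 1 reversal, that of Bmp2 at 8 h of activation under quantile normalization (−0.006). Same-numbered replicates did not deviate together (correlations −0.207 to 0.198). With the replicate block, Trim24 loss gave 9 and 2 at 8 h, 0 and 0 at 2 h and in uninduced cells, and 1 and 0 in the RING-domain experiment, and activation gave 67 and 54 at 8 h, 2 and 13 at 2 h and 16 and 24 in wild-type cells. Low levels limit the depth behind many members, 25 of which were under 1 CPM at 12 h with Trim24.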
